A study of Mus musculus with 9 samples.

Results

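The 9 genes described here encode ligands, receptors and activators of transforming growth factor beta (TGF-beta) and the SMAD proteins that carry its signal. They were chosen by name: Tgfb1 and Tgfb3 (ligands), Tgfbr1, Tgfbr2 and Tgfbr3 (receptors), Lrrc32 and Furin (presentation and processing of the ligand), and Smad3 and Smad7 (signalling). Each matched 1 row among the 49510 genes of the deposited table of read counts, and all 9 passed the filter on low counts that left 16609 genes for testing. RNA was measured in regulatory T cells (Tregs) of Foxp3-GFP mice, which carry a fluorescent reporter of Foxp3, the transcription factor of this lineage. All mice were 8 weeks old and all had undergone ischemia/reperfusion (I/R) injury of the heart 3 days before, so there was no uninjured group and no group of other T cells among these libraries. Cells were sorted magnetically and again by fluorescence from the spleen, the mediastinal lymph node (MLN) that drains the heart, or the injured heart, with 3 libraries from each organ. Nothing in the labels tells whether the 3 libraries are separate animals, pools or repeats, so each p-value reflects library-to-library spread that may be technical.

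TGF-beta is made as a precursor whose propeptide stays wrapped around the growth factor after cutting by proprotein convertases such as furin, and the resulting latent complex is inactive. Tregs hold the latent complex on their surface through GARP, the protein encoded by Lrrc32, from which integrins can release the active ligand. Free ligand binds the type II receptor Tgfbr2, which recruits and phosphorylates the type I receptor Tgfbr1. That kinase then phosphorylates SMAD2 and SMAD3, while SMAD7 is induced by the signal and blocks the receptor. Tgfbr3, also called betaglycan, is a co-receptor that presents ligand to Tgfbr2. In T cells the pathway is known for induction of Foxp3 and restraint of effector responses, and in the injured heart for activation of fibroblasts and scar formation.

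Sequences upstream of 4 starts are shown for 3 members: Smad3 and Furin, whose mean levels were lowest in the MLN, and Tgfbr2, the member whose levels correlated best with those of Furin across libraries. The means of Tgfb1, Tgfb3 and Tgfbr2 were also lowest in the MLN. RefSeq promoters (GRCm38.p6) were matched for 5 of the 9 symbols, and those of Tgfb1 and Tgfbr1 are not shown. Each run is the 250 bases before an annotated start, 5′ to 3′ on the gene's strand. Capitals mark CAGACA or its reverse complement TGTCTG, a short sequence that SMAD3 and SMAD4 can bind.
Furin, first start, chr7:80405437-80405686, minus strand: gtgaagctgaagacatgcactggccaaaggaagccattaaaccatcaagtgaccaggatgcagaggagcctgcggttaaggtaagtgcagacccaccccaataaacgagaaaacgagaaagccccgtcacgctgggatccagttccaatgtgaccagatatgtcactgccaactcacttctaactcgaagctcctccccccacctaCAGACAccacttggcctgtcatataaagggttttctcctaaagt
Furin, downstream start, chr7:80402813-80403062, minus strand: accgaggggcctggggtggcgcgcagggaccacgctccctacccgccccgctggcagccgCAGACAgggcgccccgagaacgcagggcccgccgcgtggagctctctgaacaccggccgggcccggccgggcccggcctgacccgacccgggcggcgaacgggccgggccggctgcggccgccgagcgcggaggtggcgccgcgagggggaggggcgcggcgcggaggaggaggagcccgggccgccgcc
Smad3, chr9:63757995-63758244, minus strand: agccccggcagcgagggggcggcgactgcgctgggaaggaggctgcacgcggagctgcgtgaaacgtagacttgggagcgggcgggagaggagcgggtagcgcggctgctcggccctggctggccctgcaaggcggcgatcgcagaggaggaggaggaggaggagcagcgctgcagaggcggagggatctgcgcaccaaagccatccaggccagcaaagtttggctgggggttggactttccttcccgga
Tgfbr2, chr9:116175364-116175613, minus strand: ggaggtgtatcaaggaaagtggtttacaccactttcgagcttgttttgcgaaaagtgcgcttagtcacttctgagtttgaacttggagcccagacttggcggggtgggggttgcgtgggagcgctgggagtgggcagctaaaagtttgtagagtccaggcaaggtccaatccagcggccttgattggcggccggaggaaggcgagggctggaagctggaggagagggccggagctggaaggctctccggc
The first Furin window held CAGACA 44 bases before the start and the downstream one 190 bases before it. No match lay in the Smad3 and Tgfbr2 windows. Of the windows not shown, the downstream Tgfbr1 one held CAGACA 203 bases before its start, and the first Tgfbr1 window and that of Tgfb1 had no match. Of all 32851 RefSeq windows of this length, 17.1% held CAGACA on either strand. The palindrome GTCTAGAC (0.167% of all windows) and the AP-1 sequence TGACTCA on either strand (4.46%) were in none of the 4 windows. The 2 Furin starts differed in composition, with 50.4% G and C and 6 CpG dinucleotides in the first window and 83.2% and 40 in the downstream one, against 69.2% and 22 for Smad3, 58.4% and 12 for Tgfbr2, and medians of 52.4% and 6 over all windows. A match is a description of the letters and not evidence of binding.

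Total counts ranged from 156194012 to 267520538 per library, and levels are given as CPM, counts scaled to library totals adjusted by the trimmed mean of M-values (TMM). In each organ 1 library stood apart from the others and had the largest TMM factor: spleen 3 (1.24), MLN 3 (1.17) and heart 2 (1.11). The cells were checked against 10 Treg and 13 pan-T genes, and every one had counts in each organ. Their summed levels were lower in the heart libraries, at 1369 to 1706 CPM for the Treg list against 3376 to 3932 in the spleen and 3044 to 4891 in the MLN, and at 3251 to 4963 CPM for the pan-T list against 7037 to 8818 and 7430 to 9520. Foxp3 itself was at 8.77, 38.0 and 0.240 CPM in heart 1, 2 and 3, so the defining gene was nearly absent from heart 3. Marker lists of other cells were higher in the heart: the 12 fibroblast genes summed to 3947 to 23440 CPM there against 1.26 to 16.4 in lymphoid libraries, and the 13 macrophage and monocyte genes to 6228 to 11410 CPM against 267.8 to 2503. The 11 endothelial genes summed to 604 to 1826 CPM in the heart against at most 338.5 elsewhere, and the 8 platelet genes to 341.5 to 612.7 CPM against 3.41 to 27.9. In the lymphoid organs several defining genes had no count in any library, among them Fstl1 of fibroblasts and Emcn and Robo4 of endothelium. The fibroblast and endothelial lists had no gene at 0 in all heart libraries, though Robo4 had counts in heart 2 alone (1.59 CPM). The macrophage list had no gene at 0 in all libraries of any organ. The 9 neutrophil genes summed to 695 to 3883 CPM in the heart against at most 36.5 elsewhere, the 10 cardiomyocyte genes to 138.5 to 442 against at most 1.90, and the 9 mast cell and basophil genes to 8233, 5055 and 12.8 in heart 1, 2 and 3 against at most 64.3. Dendritic cell and cytotoxic lymphocyte sums overlapped between heart and lymphoid libraries. B cell genes ran the other way, at 3912 to 5140 CPM in the spleen, 898 to 2835 in the MLN and 64.6 to 125 in the heart. In such bulk samples fewer cells of a type and less RNA per cell cannot be told apart, and the part of these other cells in the results below was not tested.

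**Figure D1:**
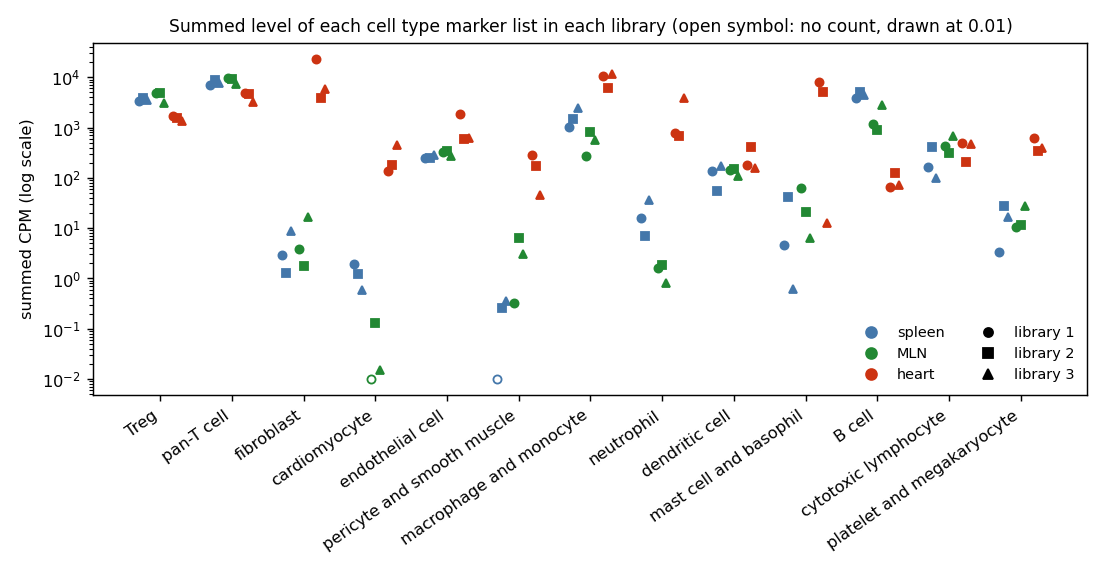
Summed CPM (y axis, log scale) of each cell type marker list (x axis) in the 9 libraries. Colours give the organ, symbols the library number, and open symbols mark sums with no count, drawn at 0.01. The fibroblast, macrophage, endothelial and platelet lists lie higher in all 3 heart libraries than in any lymphoid library.

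None of the 9 genes passed the test in any comparison of organs. By the edgeR quasi-likelihood test with p-values adjusted over all genes, 0 of 9 were called in the heart against the spleen, where 0.789% of all genes were called (0.614% higher and 0.175% lower). Against the MLN the count was 0 of 9 beside 1.38% of all genes (1.1% higher and 0.283% lower), and in the MLN against the spleen 0 of 9 beside 0%. At an unadjusted p below 0.05 the counts were 0, 3 and 2 of 9, where 13.6%, 15.5% and 5.75% of all genes passed. DESeq2, run as an alternative, called 0, 3 and 2 of the 9. They were Tgfb3, Furin and Smad3, higher in the heart than in the MLN, and Tgfb3 and Smad3, lower in the MLN than in the spleen. The call of Tgfb3 in the MLN against the spleen rested on spleen 3, the only library of these organs with a count of it. With DESeq2 all-gene calls rose from 131, 230 and 0 to 2408, 2790 and 867. The median biological coefficient of variation was 102%, so intervals around single genes were wide.

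Libraries of the organs did not overlap for 1 of 9 genes in the heart against the spleen (19.3% of all genes), 4 of 9 in the heart against the MLN (26.2%) and 2 of 9 in the MLN against the spleen (9.08%). The first was Tgfbr3, higher in the heart, as 12.4% of all genes were, while 6.9% were lower. The second set held Tgfb3, Tgfbr3 and Smad3, higher in the heart (14.9% of all genes), and Lrrc32, lower there (11.2%). Tgfb3 had no count in the MLN and could only come out higher in the heart. Tgfbr3 would not be in the second set without scaling factors, as MLN 3 had more counts of it than heart 3 and a smaller total. Overlap with scaling factors other than TMM was not checked. The third held Tgfb1 and Smad3, lower in the MLN (4.56%, with 4.52% higher). The median log2 change of the 9 was 0.47, 1.39 and -1.22 in these comparisons, against 0.02, 0.12 and 0 over all genes tested. Without scaling factors the median of all genes in the heart comparisons moved to -0.24 and -0.10, and changes are to be read relative to it. The heart libraries serve both heart comparisons, and each organ enters 2 of the 3, so these counts are not independent.

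**Figure D2:**
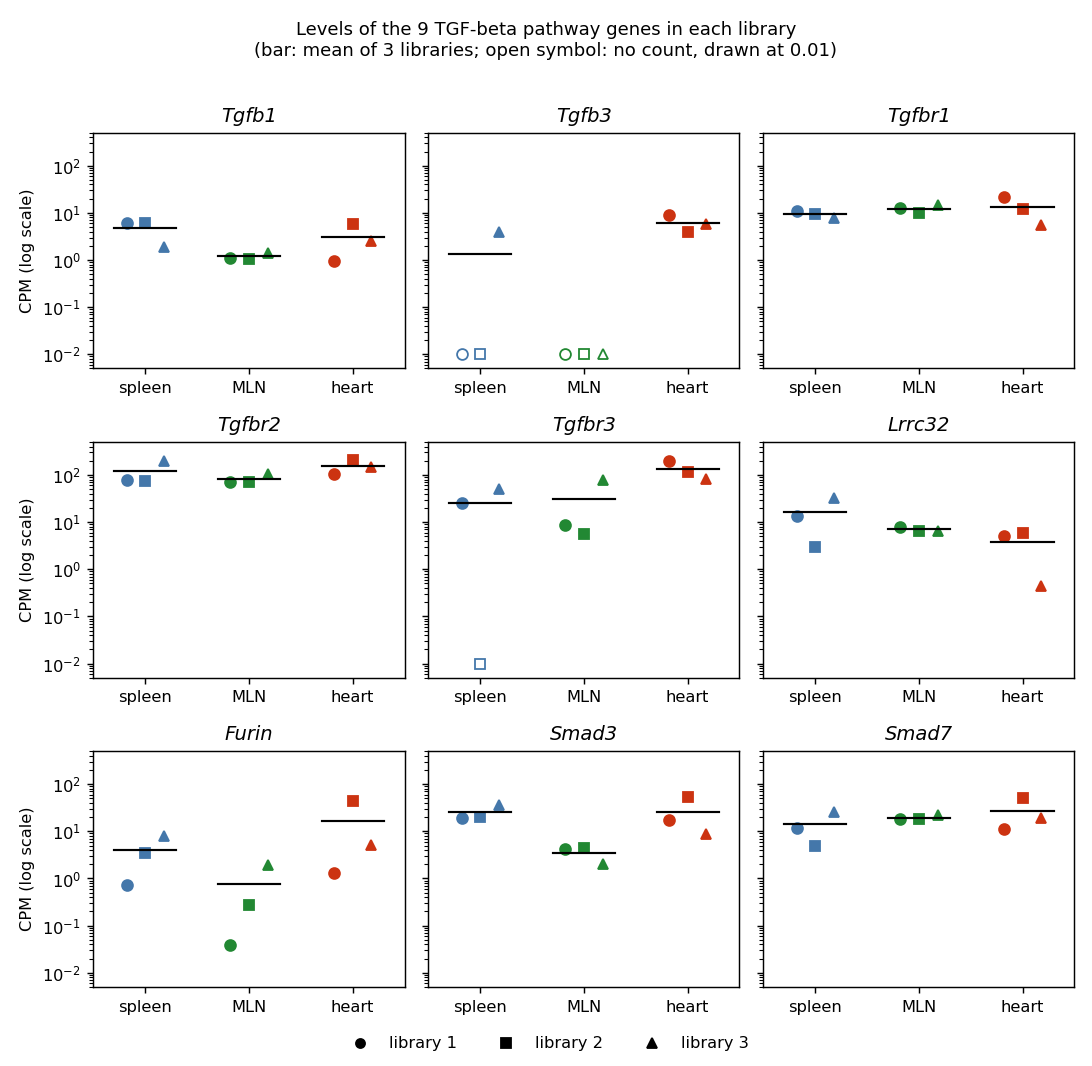
CPM (y axis, log scale) of each gene in the 3 libraries of each organ (x axis), with a bar at the mean and open symbols for libraries with no count, drawn at 0.01. Smad3 lies lower in all 3 MLN libraries than in any other, and Tgfb3 has counts in the 3 heart libraries and in spleen 3 alone.

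Tgfb1 (ENSMUSG00000002603, chromosome 7, 25687002 to 25705077, mm10) encodes the isoform that lymphocytes are best known for, and its mean level was highest in the spleen and lowest in the MLN. It was at 6.04, 6.08 and 1.93 CPM in spleen 1, 2 and 3, at 1.08, 1.08 and 1.43 in MLN 1, 2 and 3, and at 0.953, 5.93 and 2.52 in heart 1, 2 and 3. The MLN libraries lay close together and under every spleen library, while the heart libraries overlapped with both. The mean was 1.19 ± 0.201 CPM in the MLN and 4.68 ± 2.38 CPM in the spleen (SD, n = 3 each, as for all means below), 3.92-fold lower (log2 -1.97, SE 1.08, 95% interval -4.43 to 0.49, edgeR adjusted p = 0.906). The heart, at 3.14 ± 2.54 CPM, differed from the spleen by log2 -0.58 (interval -2.96 to 1.801) and from the MLN by 1.39 (interval -1.02 to 3.81), with edgeR adjusted p-values of 0.958 and 0.652. Without heart 2 these were -1.43 and 0.54.

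Tgfb3 (ENSMUSG00000021253, chromosome 12, 86056745 to 86079041) encodes the isoform best known from mesenchymal tissue, and libraries either had many counts of it or none. Counts were present in all heart libraries, at 8.89, 3.96 and 5.84 CPM, while MLN libraries had none and the spleen had 3.99 CPM in library 3 and none in the others. The heart mean of 6.23 ± 2.49 CPM was at least 473-fold higher than in the MLN, taking 3 counts per library as the limit that a count of 0 allows, for counting error only (edgeR adjusted p = 0.208, unadjusted 0.02). Fitted to both organs alone, the same difference had an edgeR adjusted p of 0.0395, and by limma-voom 0.0107. Over all alternatives the adjusted p of Tgfb3 here ran from 6.3e-12 (DESeq2) to 0.396. Against the spleen the log2 change was 2.23 (SE 2.78, edgeR adjusted p = 0.912). The spleen value rests on 1 library: without spleen 3, neither the spleen nor the MLN had a count of Tgfb3. Exons of Tgfb3 overlap antisense models (Gm37804 by 163 bases, with no count in the table, and Gm48008 by 257 bases), and no strand option of the counting is given in the sources used here. The fibroblast genes summed to 23440, 3947 and 5723 CPM in heart 1, 2 and 3 against 2.89, 1.26 and 8.65 CPM in spleen 1, 2 and 3 and 3.885, 1.801 and 16.4 CPM in MLN 1, 2 and 3. The small sums of MLN 3 and spleen 3 came mostly from different genes, Col1a2 (9.96 CPM) and Dcn (4.67) in MLN 3 and Sparc (6.69) in spleen 3. The part of fibroblast RNA in the Tgfb3 values was not tested.

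Tgfbr2 (ENSMUSG00000032440, chromosome 9, 116084293 to 116175360), the type II receptor, had overlapping levels in the 3 organs. It was at 78.7, 75.0 and 202 CPM in spleen 1, 2 and 3, 70.7, 69.7 and 104 in the MLN libraries, and 103, 209 and 147 in the heart libraries. The highest spleen, MLN and heart values came from spleen 3, MLN 3 and heart 2. The heart was at 153.1 ± 53.2 CPM and the MLN at 81.6 ± 19.7 CPM, a log2 difference of 0.91 (SE 0.49, 95% interval -0.21 to 2.02, edgeR adjusted p = 0.435). Between the heart and the spleen (118.5 ± 72.3 CPM) the log2 change was 0.37 (interval -0.74 to 1.48), or 0.996 without spleen 3. The MLN against the spleen went from -0.54 to 0.088 without spleen 3.

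Tgfbr1 (ENSMUSG00000007613, chromosome 4, 47353222 to 47414931), the type I receptor kinase, had similar means in the 3 organs and widely spread heart libraries. The heart held 21.6, 12.0 and 5.43 CPM, against 10.8, 9.53 and 7.89 in the spleen and 12.5, 10.1 and 14.4 in the MLN. The heart both exceeded and fell below every lymphoid library. Log2 changes were 0.47 (interval -1.03 to 1.97) for the heart against the spleen, 0.08 (-1.42 to 1.57) against the MLN, and 0.39 (-1.11 to 1.89) for the MLN against the spleen.

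Tgfbr3 (ENSMUSG00000029287, chromosome 5, 107106570 to 107289629), the co-receptor betaglycan, was higher in every heart library than in any lymphoid one, without passing the test. It was at 199.6, 116.5 and 81.3 CPM in heart 1, 2 and 3, at 25.4, 0 and 49.5 in the spleen, and at 8.72, 5.49 and 78.5 in the MLN. MLN 3 came close to heart 3, and spleen 2 had no count. Before scaling, MLN 3 had 20305 counts of a total of 221872020, and heart 3 had 17978 of 267520538. The separation from the MLN was thus absent without scaling factors and present with the TMM factors of these libraries (1.168 and 0.8288). Means were 132.5 ± 60.7 CPM in heart libraries and 24.98 ± 24.8 CPM in spleen libraries, 5.30-fold higher (log2 2.41, SE 1.98, edgeR adjusted p = 0.782), and 30.9 ± 41.2 CPM in the MLN, a 4.29-fold difference (log2 2.10, SE 1.96, edgeR adjusted p = 0.748). Without MLN 3 the latter was log2 4.22, and without spleen 3 the change against the spleen was 3.38. The MLN against the spleen was log2 0.31, and it was -0.30 without spleen 2, 1.28 without spleen 3 and -1.81 without MLN 3. Among marker lists, the pericyte and smooth muscle sum was at 282, 175 and 46.4 CPM in heart 1, 2 and 3, and the Treg, pan-T and mast cell sums were also highest in heart 1 and lowest in heart 3. The part of any of these cells in the Tgfbr3 counts was not tested. Tgfbr3 also shares 297 exonic bases with the same-strand model Gm43422, which had at most 128 counts in any library.

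Lrrc32 (ENSMUSG00000090958, chromosome 7, 98489283 to 98502181), which encodes the latent TGF-beta docking receptor GARP and is characteristic of activated Tregs, had a lower mean in the heart than in either lymphoid organ, and neither difference passed the test. Its level was 5.05, 5.84 and 0.448 CPM in heart 1, 2 and 3, 13.2, 2.96 and 33.1 in the spleen, and 8.04, 6.57 and 6.59 in the MLN. Each heart library was under each MLN library, whereas spleen 2 fell below 2 of the heart libraries. The mean of 3.78 ± 2.91 CPM was 4.35-fold lower than the 16.4 ± 15.3 CPM of the spleen (log2 -2.12, SE 1.14, 95% interval -4.71 to 0.47, edgeR adjusted p = 0.493) and 1.87-fold lower than the 7.07 ± 0.842 CPM of the MLN (log2 -0.90, SE 1.10, edgeR adjusted p = 0.828). Without spleen 3 the change against the spleen was log2 -1.10, and that of the MLN against the spleen went from -1.22 to -0.19. Without heart 3 the heart differed from the MLN by log2 -0.38 and from the spleen by -1.59. Foxp3 and Ctla4, of the 10 Treg genes, were also lowest in heart 3 (0.240 and 314.7 CPM) and highest in spleen 3 (187 and 925.7 CPM). Il2ra, Izumo1r, Gpr83 and Nt5e were highest of the spleen in spleen 3 too, at 419.1, 287.6, 83.1 and 96.1 CPM. In contrast, Ikzf2, Tnfrsf4 and Tnfrsf18 of the same list were lowest of the spleen there, at 1077, 229.7 and 137 CPM. Capg, at 130.4 CPM in spleen 3, lay between spleen 1 and spleen 2. Of the 10, Ikzf2, a transcription factor of Tregs, fell in the heart against the spleen (log2 -2.31, edgeR adjusted p = 0.0492), and Ikzf2 and Izumo1r, a Treg surface receptor, fell against the MLN (log2 -2.53 and -2.89, edgeR adjusted p = 0.0344 and 0.0419). Foxp3 did not pass against the spleen (log2 -2.42, SE 1.38, edgeR adjusted p = 0.546).

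Furin (ENSMUSG00000030530, chromosome 7, 80388585 to 80405436), the convertase that cuts the TGF-beta precursor among many substrates and is itself inducible by TGF-beta, was detected in every library with a wide spread within organs. Levels were 1.29, 43.5 and 5.10 CPM in heart 1, 2 and 3, 0.739, 3.39 and 8.01 in the spleen, and 0.0384, 0.279 and 1.94 in the MLN. Heart 2 held most of the heart counts, and heart 1 was under 2 spleen libraries. The heart mean of 16.6 ± 23.3 CPM was 22.1-fold above the MLN mean of 0.753 ± 1.04 CPM (log2 4.46, SE 1.88, 95% interval 0.16 to 8.76, edgeR adjusted p = 0.301) and 4.11-fold above the spleen mean of 4.04 ± 3.68 CPM (log2 2.04, SE 1.70, edgeR adjusted p = 0.788). Without heart 2 these log2 changes were 2.09 and -0.34, so the direction against the spleen depended on that library. Without MLN 3 the change against the MLN was 6.70, and without spleen 3 that against the spleen was 3.01. The antisense model Gm44851 shares 118 exonic bases with Furin and had up to 1154 counts in a library.

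Smad3 (ENSMUSG00000032402, chromosome 9, 63646767 to 63757994), the receptor-activated SMAD most tied to TGF-beta, was lower in the MLN than in either other organ in all libraries. It was at 4.15, 4.34 and 2.08 CPM in MLN 1, 2 and 3, at 19.6, 19.7 and 36.6 in the spleen, and at 17.0, 52.6 and 8.77 in the heart. The spleen range lay inside that of the heart. The MLN mean of 3.52 ± 1.26 CPM was 7.18-fold below the spleen mean of 25.3 ± 9.80 CPM (log2 -2.84, SE 0.79, 95% interval -4.65 to -1.04, unadjusted p = 0.00631, edgeR adjusted p = 0.839) and 7.41-fold below the heart mean of 26.1 ± 23.3 CPM (heart minus MLN log2 2.89, SE 0.79, 95% interval 1.08 to 4.70, unadjusted p = 0.00583, edgeR adjusted p = 0.112). Adjusted over all genes neither passed, whereas DESeq2 gave adjusted p-values of 0.00323 and 0.000753. Without heart 2 the heart minus MLN change was log2 1.87. Over all alternatives the adjusted p-values ran from 0.00323 to 1 against the spleen and from 0.000753 to 0.302 against the heart. Heart and spleen means differed by log2 0.05 (interval -1.64 to 1.73), or -0.97 without heart 2.

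Smad7 (ENSMUSG00000025880, chromosome 18, 75367529 to 75395935), the inhibitory SMAD that TGF-beta and other signals induce, showed no separation of organs. Levels were 11.1, 49.9 and 19.3 CPM in the heart libraries, 11.7, 4.85 and 25.7 in the spleen, and 18.5, 17.9 and 22.5 in the MLN. The MLN libraries sat inside the range of both other organs. Means were 26.8 ± 20.5, 14.1 ± 10.7 and 19.6 ± 2.498 CPM, and log2 changes were 0.93 (interval -0.82 to 2.67) for the heart against the spleen and 0.45 (-1.29 to 2.18) against the MLN. Without heart 2 these were 0.11 and -0.37, and without spleen 3 the former was 1.70.

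**Figure D3:**
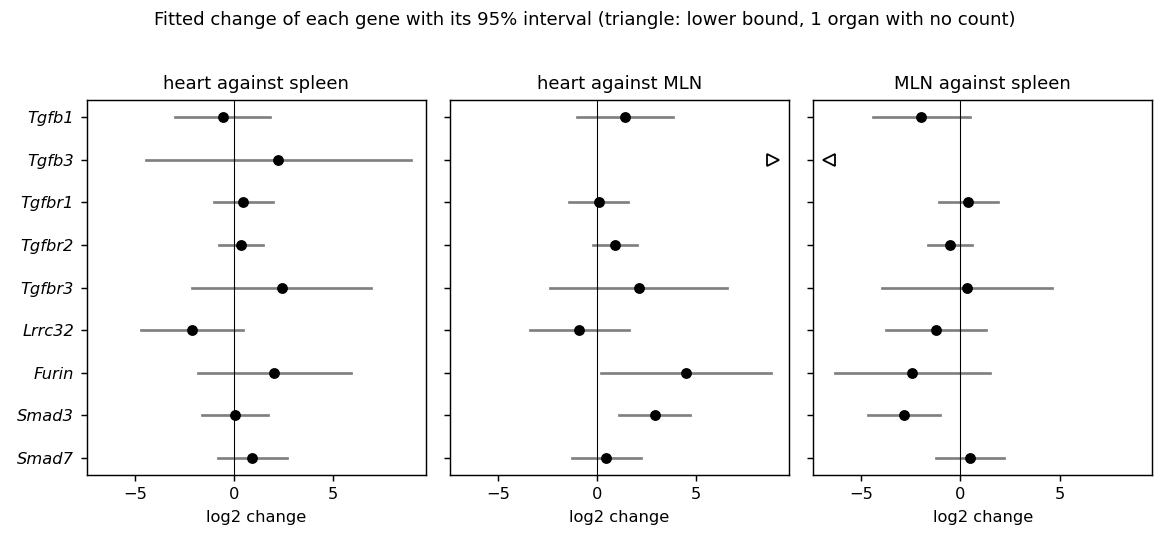
Fitted log2 change (x axis) of each gene (y axis) in the 3 comparisons, with 95% intervals from the edgeR fit before adjustment for multiple tests; triangles are lower bounds where 1 organ had no count. Intervals exclude 0 for Furin and Smad3 in the heart against the MLN and for Smad3 in the MLN against the spleen.

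Scaled to exon length, Tgfbr2 had the highest mean in the spleen and the MLN and Tgfbr3 in the heart, while Tgfbr1 ranked 6, 4 and 5 of 9 in the spleen, the MLN and the heart. In the spleen the order of mean CPM per kb of exon was Tgfbr2 (14.5 ± 8.83), Smad3 (4.56 ± 1.77), Tgfbr3 (3.82 ± 3.79), Lrrc32 (3.50 ± 3.27), Smad7 (3.12 ± 2.36), Tgfbr1 (1.44 ± 0.226), Tgfb1 (0.929 ± 0.473), Furin (0.441 ± 0.401) and Tgfb3 (0.393 ± 0.681). No neighbours in this order differed by more than the sum of their SDs, a measure that does not use the sharing of libraries. In each spleen library Tgfbr2 was above Smad3, and Tgfbr1 above Tgfb1. The MLN order began with Tgfbr2 (9.97 ± 2.41), Tgfbr3 (4.72 ± 6.30), Smad7 (4.34 ± 0.553), Tgfbr1 (1.89 ± 0.323) and Lrrc32 (1.51 ± 0.180) and went on with Smad3 (0.636 ± 0.227), Tgfb1 (0.237 ± 0.0398) and Furin (0.0820 ± 0.113), with Tgfb3 at 0. By the same measure Smad7 and Tgfbr1, Lrrc32 and Smad3, Smad3 and Tgfb1, and Tgfb1 and Furin differed, while the other neighbours did not. In each MLN library, however, Tgfbr2 was above Tgfbr3, Tgfbr1 above Lrrc32, and Furin above Tgfb3. In the heart Tgfbr3 (20.2 ± 9.28) and Tgfbr2 (18.7 ± 6.49) led and did not differ beyond their spread, and the step from Tgfbr2 to Smad7 was the one that did. Smad7 (5.92 ± 4.52), Smad3 (4.71 ± 4.197), Tgfbr1 (1.99 ± 1.25), Tgfb3 (1.84 ± 0.737), Furin (1.81 ± 2.54), Lrrc32 (0.806 ± 0.621) and Tgfb1 (0.622 ± 0.505) followed. Tgfb3 thus ranked last in both lymphoid organs and 6 of 9 in the heart, above Tgfb1, which ranked 7, 7 and 9 in the spleen, the MLN and the heart.

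**Figure D4:**
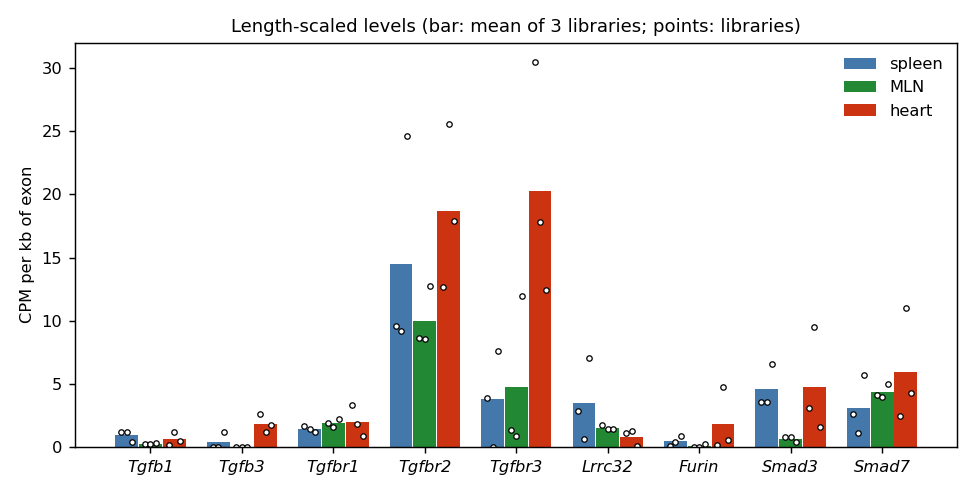
CPM per kb of exon (y axis) of each gene (x axis). Bars are means of 3 libraries, points single libraries and colours organs; Tgfbr2 and Tgfbr3 are the highest bars in the heart, and Tgfbr2 is the highest in the spleen and the MLN.

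Members followed the libraries that stood apart within an organ. In spleen 3, 7 of 9 genes had their highest spleen value, where 41.8% of all tested genes with a count in the spleen did. The corresponding counts were 6 in MLN 3 among the 8 members with a count there (37.9% of genes) and 6 of 9 in heart 2 (39.1%). Tgfb3, Tgfbr1 and Tgfbr3 were instead highest in heart 1. The Treg, pan-T, fibroblast, endothelial, pericyte, mast cell, cytotoxic lymphocyte and platelet sums were also the highest of the heart in that library. Over all 9 libraries the closest pair of members by Pearson correlation of log2 CPM was Tgfbr2 with Furin (r = 0.832), then Tgfb3 with Tgfbr2 (0.813) and Tgfbr3 with Smad7 (0.717). The lowest were Tgfb1 with Tgfbr3 (-0.349) and with Tgfbr1 (-0.345). These are descriptions over 9 libraries that share organ, depth and the differences between libraries just given.

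Among 7309 genes with a mean of at least 10 CPM, the levels most like those of each member were found by the same measure. For the ligands they were Itga2 and Mtor for Tgfb1 (r = 0.919 and 0.904), and Plcb1 and Rab7b for Tgfb3 (0.997 and 0.992). The receptors were matched by Nol10 and Polr2b for Tgfbr1 (0.911 and 0.906), by Pfkp and Rin3 for Tgfbr2 (0.975 and 0.971) and by Tmem2 and Stx12 for Tgfbr3 (0.984 and 0.976). Lrrc32 was closest to Napa and Eif2b5 (0.94 and 0.925), and Furin to Specc1l and Grina (0.964 and 0.948). The SMAD genes were nearest to Aff1 and Ssr1 for Smad3 (0.958 and 0.939) and to Arl4c and Snx1 for Smad7 (0.949 and 0.943). With 9 libraries and 7309 genes searched, these values are given with no test.

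Beyond the members, 77 other genes of the pathway were in the table and 73 were tested. In the heart against the spleen 1 of 73 rose and 0 fell (0.789% of all genes called), and in the heart against the MLN 4 rose and 0 fell (1.38%). No gene of the 73 was called in the MLN against the spleen (0%). In that comparison DESeq2, run without this filter, called 12 of the 77 in the table, beside 867 of all genes. Limma-voom called 0 of the 73, beside 3 of all genes. At an unadjusted p below 0.05 the counts were 22, 36 and 16 of 73 in the 3 comparisons, where 13.6%, 15.5% and 5.75% of all genes passed. The median log2 changes of the 73 were 1.23, 1.8 and -0.355 with zeros at their bounds, against 0.02, 0.12 and 0 over all genes. Genes that passed the filter on low counts through the heart alone, such as Inhba and Plat, could only come out higher there. With spleen 3, MLN 3 and heart 2 left out together, 0 of these other pathway genes were called in any comparison.

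Of 8 other ligands tested, Inhba, the subunit of activin A, rose in the heart against the MLN. Heart libraries were at 10.4, 14.1 and 34.2 CPM, and MLN and spleen libraries lacked any count. The heart was at least 1487-fold above the MLN and 1340-fold above the spleen, bounds that cover counting error only (edgeR adjusted p = 0.0487 and 0.0613). Gdf15, a stress-induced member of the superfamily, was at 12.9 ± 9.94 CPM in the heart against 0.465 ± 0.806 in the spleen and none in the MLN (edgeR adjusted p = 0.61 and 0.16). Tgfb2, the remaining TGF-beta isoform, was at 17.0, 0 and 2.01 CPM in the heart libraries, at 0, 0.647 and 1.91 in the spleen and at 0 in the MLN.

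Of 20 tested genes of latency, presentation and activation, Itgb1 and Plat rose in the heart against the MLN. Itgb1, the integrin beta 1 chain that pairs with many alpha chains, was at 427.5 ± 48.7 CPM in the heart, 123.1 ± 2.08 in the MLN and 158.8 ± 54.5 in the spleen. The difference from the MLN was 3.47-fold (log2 1.797, SE 0.32, edgeR adjusted p = 0.0429) and that from the spleen 2.69-fold (edgeR adjusted p = 0.0791). Plat, tissue plasminogen activator, was at 15.3 ± 3.05 CPM in the heart and at 0 in both other organs. It was at least 1163-fold above the MLN, a bound for counting error only (edgeR adjusted p = 0.0479). Thbs1, a matrix protein that can activate latent TGF-beta, was at 218, 427 and 853 CPM in the heart and at most 1.96 CPM elsewhere (edgeR adjusted p = 0.106 against the spleen and 0.108 against the MLN). Itgav, the integrin chain of the main TGF-beta activating integrins, was at 129.4 ± 47.2, 37.5 ± 6.20 and 100.6 ± 52.8 CPM in heart, MLN and spleen (edgeR adjusted p = 0.104 for the heart against the MLN). Libraries of this list did not overlap for 15 of 20 genes in the heart against the MLN, all higher in the heart, as were 14.9% of all genes. Genes of this list with no count in the MLN, such as Plat, Plau and Mmp2, passed the filter on low counts through the heart. They could only come out higher there, so the filter set part of this one-sidedness. Against the spleen 10 of the 20 were higher (12.4% of all genes) and 1 was lower (6.9%). The latter was Itgb8, a chain of a TGF-beta activating integrin, at 5.71 ± 3.30 CPM in heart libraries and 19.75 ± 7.06 in spleen libraries (edgeR adjusted p = 0.394). Itgb8 in the MLN, at 5.82 ± 3.83 CPM, was near the heart level, and each MLN library was also below each spleen library. The fibroblast, macrophage and platelet sums given above were higher in the heart libraries, and their part in the values of this list was not tested.

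No other receptor or co-receptor was called among 10 tested. Nrp1, a co-receptor carried by thymus-derived Tregs that can bind latent TGF-beta, was at 155.4 ± 130.9 CPM in the heart, 109.8 ± 31.5 in the MLN and 144.1 ± 84.0 in the spleen, with overlapping libraries. The activin receptor Acvr2a was at 65.2 ± 32.5 CPM in the heart against 13.9 ± 10.5 in the spleen and 10.4 ± 4.62 in the MLN (edgeR adjusted p = 0.204 and 0.121). Eng, the endothelial and macrophage co-receptor endoglin, was at 24.7, 184.7 and 35.1 CPM in the heart and at most 0.0622 CPM elsewhere (edgeR adjusted p = 0.0809 and 0.0515).

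None of 23 SMADs and regulators passed. Ldlrad4, a feedback inhibitor of the receptors' access to SMADs, was at 432.7 ± 282.1 CPM in the heart, 1164 ± 268.1 in the MLN and 463.7 ± 111.3 in the spleen (edgeR adjusted p = 0.278 for the heart against the MLN). Strap was at 145.1 ± 89.2, 270.4 ± 32.6 and 182.9 ± 54.0 CPM, and Fkbp1a, which binds the type I receptor, at 144.4 ± 25.6, 176.9 ± 74.8 and 159.5 ± 44.9 CPM in the same order. Among 16 known targets, Id3 rose in the heart against the spleen and Tgfbi in the heart against the MLN. Id3, an inhibitor of E proteins, averaged 124.2 ± 59.3 CPM in heart libraries, 43.1 ± 12.2 in those of the MLN and 10.1 ± 3.30 in those of the spleen. Its heart to spleen difference was log2 3.62 (SE 0.54, edgeR adjusted p = 0.0374). Tgfbi, a secreted matrix protein named for its induction by TGF-beta and also abundant in macrophages, was at 105.2, 685.5 and 271.5 CPM in the heart and 1.18, 1.01 and 3.52 in the MLN (log2 7.54, SE 1.31, edgeR adjusted p = 0.0396). Id2 was at 618.4 ± 386.9 CPM in the heart, 160.5 ± 69.3 in the MLN and 268.9 ± 179.9 in the spleen, and Junb at 301.7 ± 432.9, 88.2 ± 70.1 and 358.8 ± 376 CPM. The 5 calls of these lists held in 6 to 8 of 18 alternatives and in 1 to 3 of the 9 that left out 1 library.

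**Figure D5:**
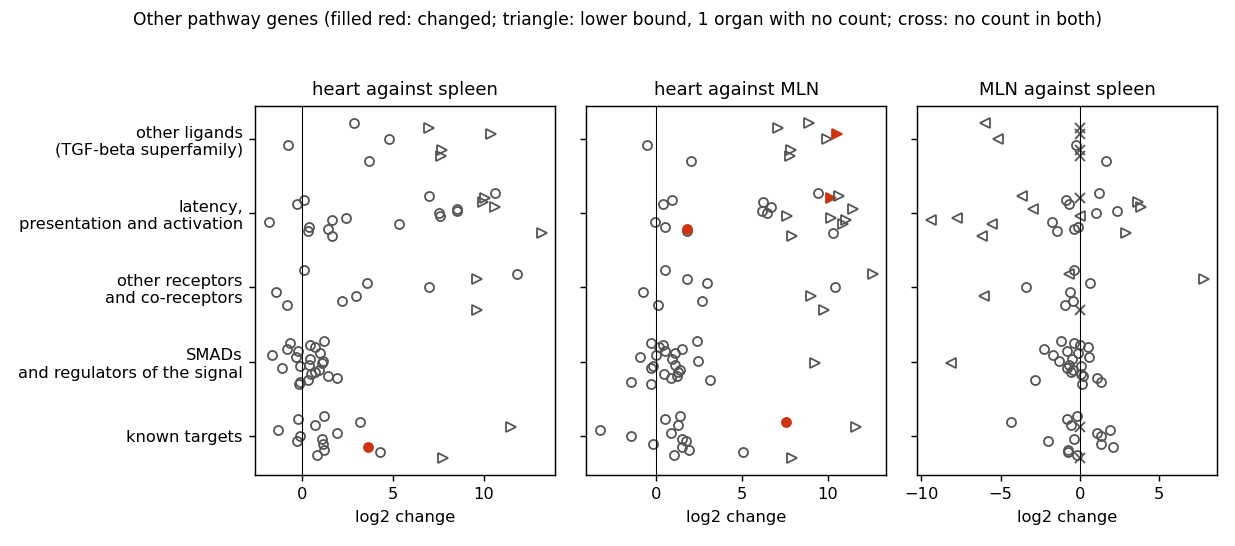
Log2 change (x axis) of the other tested pathway genes, by list (y axis), in the 3 comparisons. Filled red symbols passed the edgeR test, triangles are lower bounds where 1 organ had no count, and crosses mark genes with no count in both organs; the 5 filled symbols all lie to the right of 0.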

How the data were processed

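Raw counts of reads for each gene, neither normalized nor pooled, were deposited for 9 libraries, 3 per organ. Per the submitters' processing notes, CASAVA 1.8.2, HISAT2, HTSeq 0.6.0 and mm10 were used. Which strand was counted, and with which annotation, is not stated there. Library cDNA came from an ultra-low-input kit per the labels' protocols, so amplified reads are not independent molecules, and the floors set for a count of 0 cover counting error only. All columns were used (0 left out). Coordinates and exon lengths came from GENCODE vM21 (GRCm38), which held 49326 of the 49510 identifiers and all 9 members.

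Counts were analysed in R 4.3.3 with edgeR 4.0.16: default filter (minimum count 10, minimum total 15), TMM scaling, 1 quasi-likelihood fit of organ to all 9 libraries (6 residual degrees of freedom), two-sided tests, Benjamini-Hochberg adjustment over 16609 genes, and a call below 0.05. SEs derive from the F statistic. CPM use scaled totals, a floor of 3 counts per library stands for 0, and log2 CPM for correlations used a prior count of 2. The fit was tested on simulated data. The members and lists were chosen with earlier results of these data known. All members are named, and of other pathway genes those called plus up to 3 per list by mean CPM; genes most like a member are the 2 with the highest correlation. Itgb8, the marker genes named and the markers without counts were chosen after their values were seen. Alternatives were other scalings, DESeq2 1.42.0, limma-voom (limma 3.58.1), 2 other filters, both organs alone, a replicate block, each library left out, and spleen 3, MLN 3 and heart 2 left out together.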

Additional observations from a re-analysis of the deposited data

How the results depend on the processing

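Of 27 pairs of a member and a comparison, 20 kept their direction in all of the 18 alternatives that gave a value, and 7 reversed in at least 1. Tgfb3 in the MLN against the spleen had no value without spleen 3, with spleen 3, MLN 3 and heart 2 left out together, or in the fit of these 2 organs alone. DESeq2 called 3 members in the heart against the MLN and 2 in the MLN against the spleen, limma-voom and the fit of the 2 organs alone called 1 each in the heart against the MLN, and every fit that left out 1 library called 0.

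Over all genes, calls in the heart against the spleen went from 131 to 2408 with DESeq2, 1141 with limma-voom, 292 with both organs alone, 3 with the 3 libraries left out and 0 to 122 with 1 library left out. In the heart against the MLN they went from 230 to 2790, 1332, 548, 4 and 0 to 249 in the same order, and in the MLN against the spleen from 0 to 867 with DESeq2 and 3 with limma-voom. Other pathway genes called in the heart against the spleen went from 1 to 22 with DESeq2, 20 with limma-voom, 7 with both organs alone, 2 with a minimum count of 100, 0 with the 3 libraries left out and 0 to 1 with 1 left out. Against the MLN they went from 4 to 37, 21, 11, 8, 0 and 0 to 7, and to 1 without the filter and 0 without scaling factors. In the MLN against the spleen DESeq2 called 12. The cause of these shifts was not tested.

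Pairing by replicate number was not visible in the correlations between libraries. Of 9 same-numbered pairs, 1 had deviations from the organ means that correlated over 0.1, and 1 of 9 libraries correlated best with its own number. With so wide a spread between libraries this cannot exclude pairing, and the labels do not say what the number marks. With the replicate block, calls over all genes fell from 131 and 230 to 0 in the heart against the spleen and the MLN, and those of other pathway genes from 1 and 4 to 0. The members' count stayed at 0 in all 3 comparisons, as did all counts in the MLN against the spleen. In that fit Smad3 in the heart against the spleen was log2 -0.31 and Tgfbr1 in the heart against the MLN -0.083.

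The other reversals were as follows. Smad3 in the heart against the spleen was log2 -0.11 without scaling factors, -0.29 by limma-voom and -0.60 with the 3 libraries left out, and ranged from -0.97 to 0.46 with 1 left out. Tgfbr1 in the heart against the MLN was -0.20 without scaling factors, -0.18 by limma-voom and -0.50 to 0.44 with 1 left out. With 1 library left out, Tgfbr1 ranged from -0.11 to 0.83 and Furin from -0.34 to 3.01 in the heart against the spleen, and Smad7 from -0.37 to 0.82 in the heart against the MLN, which was -0.24 with the 3 left out. In the MLN against the spleen Tgfbr2 ranged from -0.79 to 0.088 and Tgfbr3 from -1.81 to 1.28, with -0.85 when the 3 were left out. At these depths a count of 0 allows up to 0.0193 CPM, and the median biological coefficient of variation between libraries was 102%.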
